A study of Mus musculus with 18 samples.

Results

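The collagen and extracellular matrix genes described here are the 47 protein-coding genes of the deposited expression table whose names mark them as collagens, laminin chains, nidogen, perlecan, fibulins, fibrillin, elastin, lysyl oxidases, matrix metalloproteinases, Timp inhibitors or one of 6 matricellular and proteoglycan genes. They were chosen by name, not by their values, out of 10897 genes in the table. They comprise 5 fibrillar collagens, 2 type IV collagens, 6 other collagens, 8 laminin and basement membrane genes, 6 matricellular and small proteoglycan genes, 9 elastic fibre and crosslinking genes, 8 matrix metalloproteinases and 3 Timp inhibitors. The name rule also took the Adamts family, of which the table held 0 genes.

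RNA of mouse colorectal tissue was sequenced in 18 libraries, with 6 libraries in each of 3 groups. Samples of GF-AOMS are described in their characteristics as germ-free mice given azoxymethane (AOM), a carcinogen that induces colon tumours, together with cigarette smoke. GF-AOM samples are described as germ-free mice given AOM, and Control samples as wild-type mice with a specific pathogen-free (SPF) flora and AOM-induced cancer. The treatment protocol in the labels gives other contents for the same groups, namely AOM with smoke, AOM alone and a normal control, and the growth protocol houses the animals under SPF conditions. All animals were male C57BL/6J mice aged 10 weeks, so strain, sex and age were shared by the groups. Under both readings GF-AOMS and GF-AOM are separated by smoke, while what separates either of them from Control has no single meaning in the labels. GF-AOMS and GF-AOM are called the GF groups below after their names alone. The labels do not say whether the tissue held tumour. They count 6 mice per group without tying each library to a mouse. The p-values below set a group difference against the spread between these samples, which may not be that between animals.

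Fibrillar collagens are triple helices spun mainly by fibroblasts and smooth muscle cells, and they give the gut wall its tensile strength. Type IV collagen and the laminins form the sheet-like basement membrane under epithelium and around vessels and muscle. Lysyl oxidases crosslink these fibres, metalloproteinases cut them and Timp proteins inhibit the metalloproteinases. In colorectal tumours the stroma is the main source of fibrillar collagen transcripts.

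Libraries held 48953539 to 79233656 counts. CPM below is a count scaled to the size of its library and by TMM, which aligns the bulk of genes between libraries, and FPKM is the deposited value per length of transcript and library size. There were 2 ways in which libraries stood apart from their groups. In Control replicates 3 to 6 the distal colon gene Hoxa13 was at 0 to 3.05 CPM, against 24.7 to 53.5 CPM in the 14 other libraries. In 5 libraries (GF-AOMS replicates 1 and 2, GF-AOM replicates 3 and 6, Control replicate 2) the TMM factor was under 0.9, and ribosomal protein genes took 15.7% to 26.7% of counts there, against 5.34% to 16.3% elsewhere. Values without one or the other set stand beside some of the results below that moved with it. Where no such value is printed, a result may have moved as well.

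All 3 genes that stand for the group, Col1a1, Col1a2 and Postn, were detected in every library. The table holds only genes that reached 1 FPKM in 15 or more libraries, and 40 of the 47 matrix genes reached it in all 18. Genes of these families that are not in the table are not analysed here. Per length, the highest mean over 18 libraries was that of Sparc, a collagen-binding matricellular protein, at 69.6 FPKM (SD 14.6). Col3a1, the type III collagen chain, followed at 41.0 FPKM (SD 15.02), and Dcn, the proteoglycan decorin that coats collagen fibrils, at 35.2 FPKM (SD 11.9). The inhibitor gene Timp2 averaged 28.1 FPKM (SD 9.45), the proteoglycan gene Bgn (biglycan) 25.8 FPKM (SD 8.77) and the type VI collagen gene Col6a1 24.0 FPKM (SD 11.8). These neighbours in the order, from Col3a1 downwards, lay within an SD of each other. The type I chains Col1a1 and Col1a2 stood lower, at 10.9 FPKM (SD 5.83) and 10.8 FPKM. Among elastic fibre genes, proteases and laminins the highest means were those of Fbln1, a fibulin, at 16.1 FPKM (SD 5.28), Mmp2 at 12.9 FPKM (SD 5.13) and Lamb3 at 6.17 FPKM (SD 3.17). At the low end, Lama5 averaged 1.29 FPKM and Mmp11 1.37 FPKM.

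**Figure D1:**
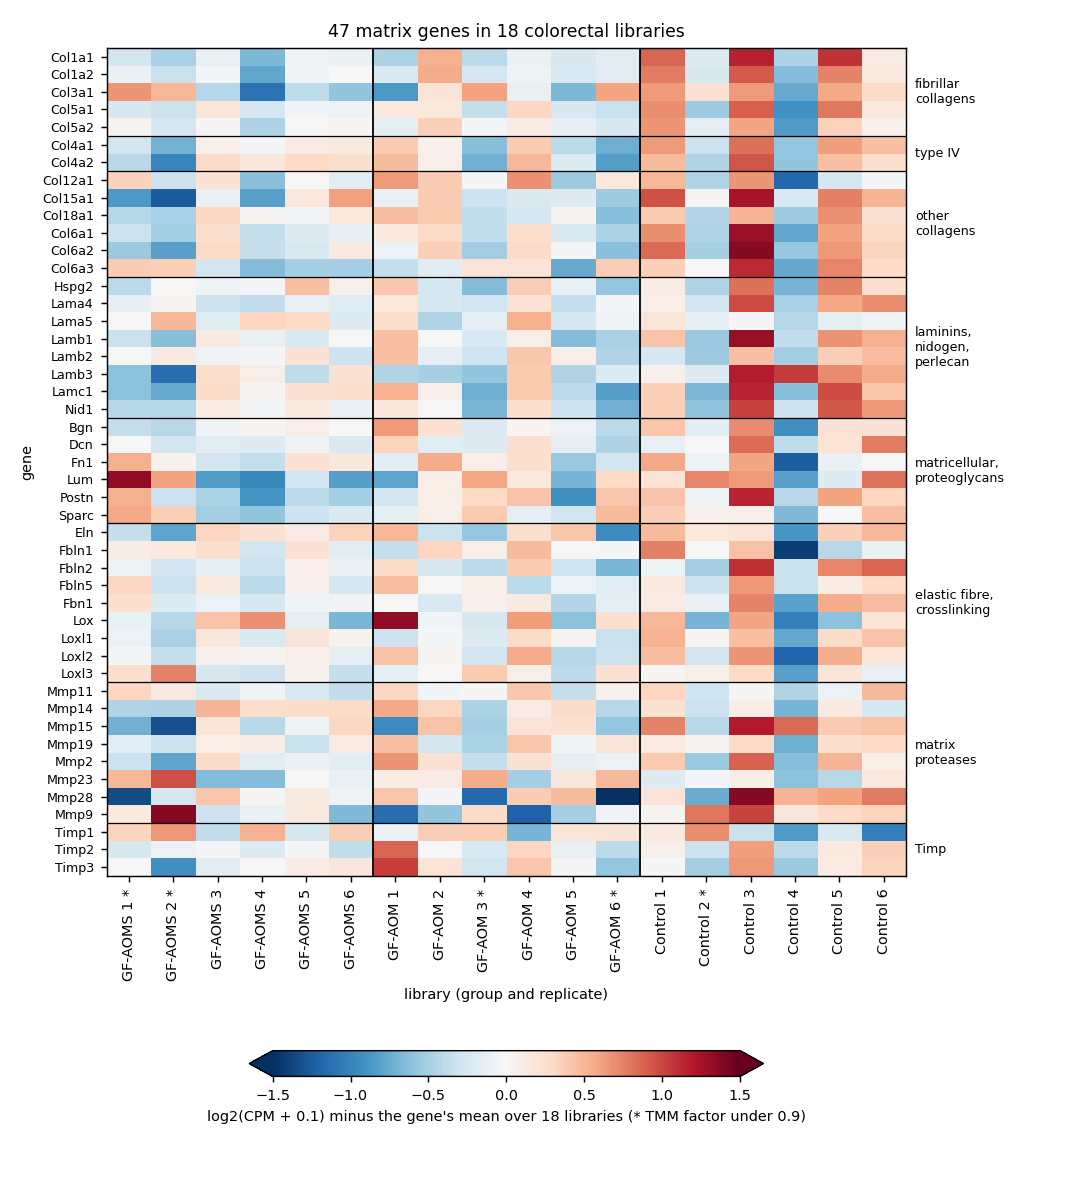
Deviation of each matrix gene (rows, grouped by role) from its own mean over 18 libraries (columns), as log2(CPM + 0.1), with colours ending at 1.5 in either direction and asterisks on libraries whose TMM factor was under 0.9. Control replicate 3 is mostly red and Control replicate 4 mostly blue, and their median deviations over the 47 genes were 0.71 and -0.64 on the log2 CPM scale.

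No matrix gene passed the test in any of the 3 comparisons, although most averaged lower in both GF groups than in Control. The collagens were the most uniform, with a lower mean than Control for 13 of 13 in GF-AOMS and 12 of 13 in GF-AOM. The difference between the groups with and without smoke was smaller, and its largest value was that of the gelatinase gene Mmp9, which averaged higher with smoke. The largest contrasts with Control, Lamb3, Col1a1, Col15a1, Mmp15 and Mmp9, each rested on groups that overlapped.

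A gene was called where its p from the edgeR quasi-likelihood test, adjusted by Benjamini-Hochberg across the 10897 genes, was under 0.05. That was so for 0 of 47 matrix genes in GF-AOM against Control, where 0.00918% of all genes were called. It was so for 0 of 47 in GF-AOMS against GF-AOM (0.0% of all genes) and for 0 of 47 in GF-AOMS against Control (0.734% of all genes). DESeq2 called 1 matrix gene, Lamb3, in GF-AOM against Control (2.66% of all genes), 0 in GF-AOMS against GF-AOM (0.0276%) and 0 in GF-AOMS against Control (3.44%). Limma on log2(FPKM + 1) called 0 matrix genes in each comparison, beside 0.0%, 0.0% and 0.174% of all genes in GF-AOM against Control, GF-AOMS against GF-AOM and GF-AOMS against Control. Between no pair of groups did the CPM of any matrix gene fail to overlap, which it did for 0.762% of all genes in GF-AOM against Control, 0.0642% in GF-AOMS against GF-AOM and 0.798% in GF-AOMS against Control.

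At an unadjusted p under 0.05, 9 of 47 matrix genes were lower in GF-AOM than in Control and 0 were higher, while 15.7% of all genes reached that level and 9.74% did so as lower. In GF-AOMS against Control the count was 13 lower and 0 higher, beside 16.2% of all genes in either direction and 9.25% lower. With smoke alone, in GF-AOMS against GF-AOM, 1 of 47 did so, beside 1.09% of all genes. Both comparisons with Control use the same 6 Control libraries, so their counts are not separate evidence. They also moved with single libraries. The 9 became 2 without Control replicate 3, where 10.8% of all genes reached that level. It became 4 without Control replicate 5 (10.9% of all genes), GF-AOM replicate 3 (10.97%) or GF-AOM replicate 6 (10.9%). It rose to 14 without Control replicate 2 (27.2% of all genes) and to 18 without Control replicate 4 (10.9%). The 13 became 4 without Control replicate 3 (10.9% of all genes) and 8 without GF-AOMS replicate 4 (13.9%). It rose to 19 without Control replicate 2 (25.6% of all genes) and to 21 without Control replicate 4 (12.3%). Without the 5 libraries of low TMM factor the 9 stayed at 9 (21.9% of all genes) and the 13 became 20 (18.7% of all genes). With the gene length slope of each library as a covariate they were 3 and 11, beside 11.7% and 15.8% of all genes. Without Control replicates 3 to 6, which leaves 2 Control libraries, they were 0 and 1, beside 3.05% and 3.06% of all genes.

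The median log2 difference of the 47 genes was -0.29 in GF-AOM against Control, with 34 of 47 below 0, where the median of all genes was -0.0038 and 50.5% were below 0. In GF-AOMS against Control it was -0.27, with 39 of 47 below 0, and all genes had a median of 0.0064 with 48.96% below 0. In GF-AOMS against GF-AOM it was -0.08, with 32 of 47 below 0, and all genes had a median of 0.010 with 46.4% below 0. Without Control replicates 3 to 6 the medians against Control were -0.11 for GF-AOM and -0.17 for GF-AOMS, and without Control replicate 3 alone they were -0.16 and -0.18. Leaving out Control replicate 4 moved them the other way, to -0.42 for GF-AOM (40 of 47 below 0) and -0.40 for GF-AOMS (43 of 47). The gene length slope as a covariate gave -0.13 and -0.17. The smoke median was -0.02 without GF-AOM replicate 1 or 2 (28 of 47 below 0 in each case), -0.04 without GF-AOM replicate 4, GF-AOMS replicate 2 or GF-AOMS replicate 4, and -0.16 without the 5 libraries of low TMM factor (40 of 47). Matrix genes together took 0.309% of counts in GF-AOMS (SD 0.053), 0.330% in GF-AOM (SD 0.072) and 0.419% in Control (SD 0.148, n = 6 each). In bulk tissue such a level does not tell fewer matrix-producing cells from less RNA per cell.

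Other cell types were read from their markers, summed within each library. Summed endothelial markers (7 of 8 genes measured) spanned 15.3 to 39.0 FPKM in GF-AOMS, 20.1 to 46.5 FPKM in GF-AOM and 26.3 to 49.1 FPKM in Control. Epithelial markers (9 of 9) summed to 2155 to 4810 FPKM in GF-AOMS, 2603 to 4078 FPKM in GF-AOM and 3265 to 5914 FPKM in Control. For adipocyte markers (2 of 5) the sums were 10.1 to 47.1 FPKM in GF-AOMS, 11.3 to 38.6 FPKM in GF-AOM and 10.4 to 223 FPKM in Control. The Control libraries low in Hoxa13 held 57.2 to 223 FPKM of these, above every GF library. The other Control libraries held 16.3 and 10.4 FPKM, among the GF values. Smooth muscle markers (9 of 9) summed to 830.3 to 3164 FPKM in GF-AOMS, 1252 to 2173 FPKM in GF-AOM and 614 to 1639.8 FPKM in Control. No measured marker was at 0 in any library, and the ranges of whole groups all overlapped. The part of cell content in the matrix differences was not tested.

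**Figure D2:**
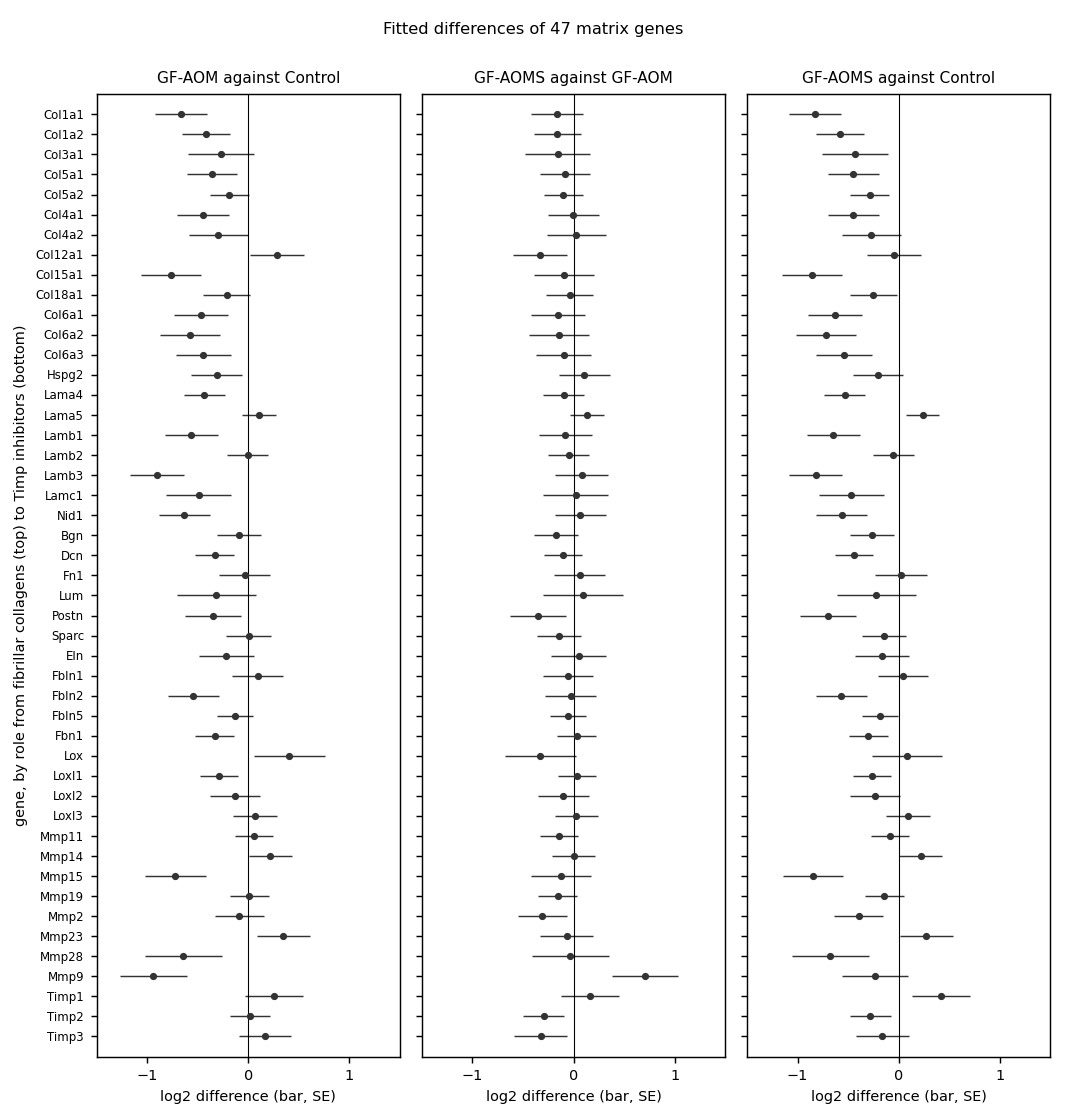
Fitted log2 difference and its SE for each of the 47 matrix genes in the 3 comparisons, ordered by role. The collagens at the top lie left of 0 in both comparisons with Control, except Col12a1 in GF-AOM, and the points of GF-AOMS against GF-AOM lie between -0.35 and 0.16 apart from Mmp9 at 0.71.

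Among the fibrillar collagens, all 5 averaged lower in both GF groups than in Control and none passed the test. Col1a1 encodes the alpha 1 chain of type I collagen, the main fibre of connective tissue (chromosome 11, 94936224 to 94953042, forward strand). In GF-AOMS its lowest, median and highest values were 46.2, 64.5 and 71.3 CPM, in GF-AOM they were 52.9, 63.8 and 106.9 CPM, and in Control they were 53.3, 107.5 and 164.0 CPM. Control replicates 1, 3 and 5 stood above every GF library, and the other Control replicates lay among them. The log2 difference was -0.66 (SE 0.26, edgeR adjusted p 0.253) for GF-AOM against Control and -0.83 (SE 0.26, edgeR adjusted p 0.139) for GF-AOMS against Control. Without Control replicate 2 the difference of GF-AOMS was -0.94 and was called (adjusted p 0.0419), where 4.52% of all genes were called, and this p ranged over the alternatives between 0.0419 and 0.999. Without Control replicates 3 to 6 the differences were -0.53 in GF-AOM and -0.69 in GF-AOMS.

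Col1a2, the alpha 2 chain that joins Col1a1 in the type I helix (chromosome 6, 4504814 to 4541544), followed it closely. It ranged over 82.9, 135.2 and 143.0 CPM in GF-AOMS (lowest, median, highest), 119.6, 125.0 and 210.4 CPM in GF-AOM, and 90.8, 199.0 and 270.5 CPM in Control. The log2 difference was -0.42 (SE 0.24) for GF-AOM and -0.58 (SE 0.24) for GF-AOMS against Control, with edgeR adjusted p of 0.363 and 0.255. GF-AOM replicate 2 was the highest of its group for both chains, and GF-AOMS replicate 4 was the lowest of its group. Col3a1, the type III chain of distensible tissues, differed by -0.27 in GF-AOM and -0.43 in GF-AOMS against Control (SE 0.32 each), and by -0.65 and -0.96 without the 5 libraries of low TMM factor. Col5a1 and Col5a2 encode type V chains, on which fibrils start to assemble. Their differences were -0.36 and -0.19 in GF-AOM and -0.45 and -0.29 in GF-AOMS, with SE of 0.195 to 0.25.

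**Figure D3:**
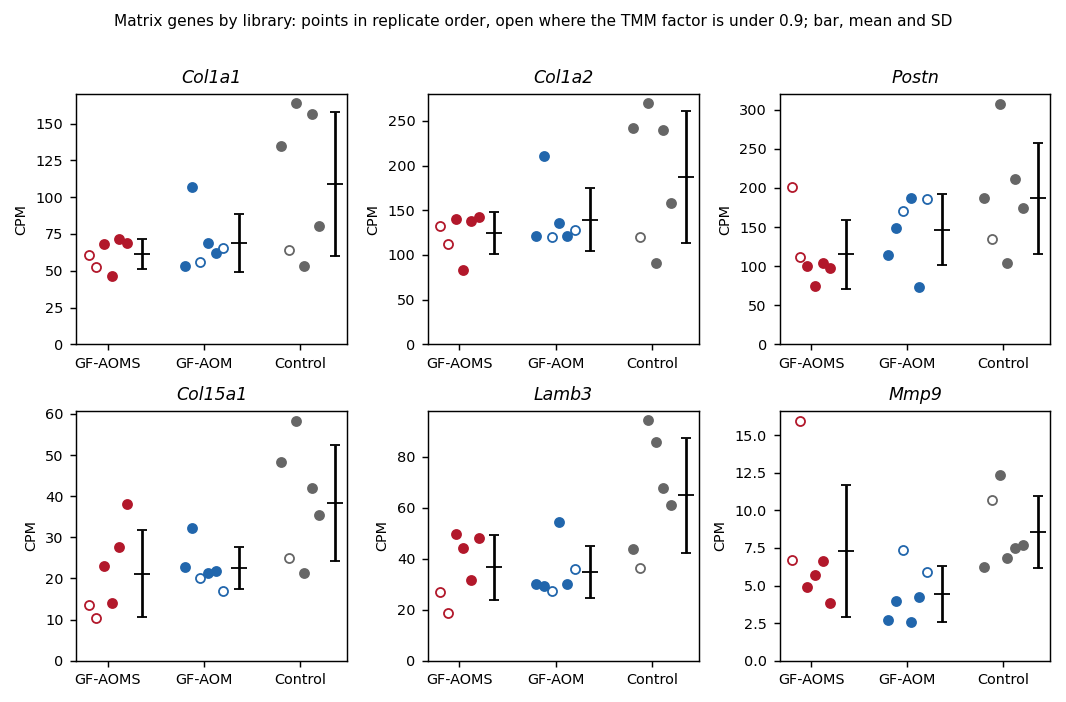
CPM of 6 matrix genes in each library, in replicate order within GF-AOMS, GF-AOM and Control, with open points where the TMM factor was under 0.9 and bars for the mean and SD of 6 libraries. For Col1a1, 3 Control libraries at 134.7, 156.8 and 164.0 CPM lie above the other 15, which span 46.2 to 106.9 CPM.

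The other collagens showed the same sign with 1 exception. Col15a1 is a collagen of the basement membrane zone of vessels and muscle. It ranged over 10.4, 18.6 and 38.1 CPM in GF-AOMS (lowest, median, highest), 17.1, 21.6 and 32.2 CPM in GF-AOM, and 21.2, 38.7 and 58.4 CPM in Control. The log2 difference from Control was -0.77 in GF-AOM and -0.86 in GF-AOMS (SE 0.30 each, edgeR adjusted p 0.254 and 0.187), and every GF library lay below the Control mean. Type VI collagen is a beaded filament beside cell surfaces, made of the chains of Col6a1, Col6a2 and Col6a3. Their log2 differences were -0.47, -0.58 and -0.44 in GF-AOM and -0.63, -0.72 and -0.54 in GF-AOMS against Control (SE 0.27 to 0.29). With Control replicates 3 to 6 left out they were -0.27, -0.38 and -0.24 in GF-AOM and -0.42, -0.52 and -0.33 in GF-AOMS, and without the libraries of low TMM factor Col6a3 was at -0.69 and -0.95. Col12a1, a collagen that decorates fibril surfaces, was the exception, at 0.28 (SE 0.27) in GF-AOM and -0.05 (SE 0.27) in GF-AOMS. The type IV chains Col4a1 and Col4a2 differed by -0.45 and -0.30 in GF-AOM and by -0.45 and -0.27 in GF-AOMS (SE 0.25 and 0.29). Col18a1, a precursor of endostatin, differed by -0.21 in GF-AOM and -0.25 in GF-AOMS (SE 0.23). Col4a2 was at -0.11 and -0.077, and Col18a1 at -0.034 and -0.070, in GF-AOM and GF-AOMS without Control replicates 3 to 6.

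Of the 8 laminin and basement membrane genes, 7 averaged lower than Control in each GF group, and 4 in each had an unadjusted p under 0.05, a level reached by 15.7% of all genes in GF-AOM and 16.2% in GF-AOMS. Lamb3, the beta chain of an epithelial laminin, had the smallest p of any matrix gene in GF-AOM against Control. It ranged over 18.7, 38.0 and 49.6 CPM in GF-AOMS (lowest, median, highest), 27.4, 30.2 and 54.5 CPM in GF-AOM, and 36.2, 64.4 and 94.2 CPM in Control. Control replicates 3 to 6 held 61.1 to 94.2 CPM, above all GF libraries, while replicates 1 and 2, where Hoxa13 was high, held 43.8 and 36.2 CPM and lay among them. The log2 difference was -0.90 (SE 0.26, edgeR adjusted p 0.14) for GF-AOM against Control and -0.82 (SE 0.26, edgeR adjusted p 0.159) for GF-AOMS against Control. The differences were -0.21 (SE 0.33) in GF-AOM and -0.13 (SE 0.33) in GF-AOMS when Control replicates 3 to 6 were left out, and the part of colon position in these values was not tested. Without Control replicate 2 the gene was called in both comparisons, with adjusted p of 0.0372 for GF-AOM and 0.0449 for GF-AOMS, where 3.27% and 4.52% of all genes were called. DESeq2 gave 0.0368 for GF-AOM, and among the alternatives the p lay between 0.0368 and 0.999 in GF-AOM and between 0.0449 and 0.999 in GF-AOMS.

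Among the other basement membrane genes, Nid1 encodes nidogen, which links laminin to type IV collagen. Its difference from Control was -0.63 in GF-AOM and -0.56 in GF-AOMS (SE 0.25). Lamb1, a laminin chain found in most basement membranes, differed by -0.56 in GF-AOM and -0.65 in GF-AOMS (SE 0.26). Lama4, a laminin chain of vessels and muscle, differed by -0.43 in GF-AOM and -0.53 in GF-AOMS (SE 0.20). Their edgeR adjusted p values were between 0.227 and 0.314. The single member above Control was Lama5, an alpha chain of epithelial basement membranes, at 0.11 in GF-AOM and 0.24 in GF-AOMS (SE 0.17). Lamc1, the gamma chain shared by most laminins, was at -0.49 and -0.47 in these comparisons (SE 0.32), and Hspg2, the heparan sulphate proteoglycan perlecan, at -0.31 and -0.21 (SE 0.25). Each of these differences was smaller in size without Control replicates 3 to 6, and some changed sign. In GF-AOM they were then -0.13 for Nid1, -0.11 for Lamb1, -0.0014 for Lama4, 0.0048 for Lamc1, 0.064 for Hspg2 and -0.021 for Lama5. In GF-AOMS they were -0.056 for Nid1, -0.19 for Lamb1, -0.096 for Lama4, 0.030 for Lamc1, 0.17 for Hspg2 and 0.11 for Lama5.

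Of the 6 matricellular and small proteoglycan genes, 5 averaged lower than Control in each GF group. Postn encodes periostin, which binds collagen and is made by activated fibroblasts (chromosome 3, 54361109 to 54391037). It ranged over 74.9, 102.3 and 201.5 CPM in GF-AOMS (lowest, median, highest), 73.2, 159.4 and 187.0 CPM in GF-AOM, and 104.6, 180.5 and 307.9 CPM in Control. In GF-AOMS 5 of 6 libraries lay between 74.9 and 111.5 CPM, and the groups overlapped. The log2 difference was -0.70 (SE 0.28, edgeR adjusted p 0.24) for GF-AOMS against Control and -0.35 (SE 0.28, edgeR adjusted p 0.482) for GF-AOM against Control. Without Control replicates 3 to 6 these were -0.48 for GF-AOMS and -0.13 for GF-AOM. Without the 5 libraries of low TMM factor they were -1.06 (SE 0.30) and -0.58 (SE 0.29), neither of them called. Decorin (Dcn) differed by -0.44 in GF-AOMS and -0.33 in GF-AOM (SE 0.19), and without Control replicates 3 to 6 by -0.10 and 0.0077. Sparc and the fibronectin gene Fn1 had differences between -0.14 and 0.02 from Control, with SE of 0.22 and 0.25. The Sparc value leans on libraries of low TMM factor. In GF-AOMS these held 441.3 and 379.3 CPM and the others 196.8 to 256.0 CPM. In GF-AOM they held 391.1 and 413.9 CPM and the others 245.3 to 315.4 CPM, while Control spanned 188.4 to 405.7 CPM. Lum, the proteoglycan lumican, had 1 of the 3 widest spreads within groups of any matrix gene, with an SD of 0.73 on the log2 CPM scale, next to Mmp28 at 0.76 and Lox at 0.64.

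Of the 9 elastic fibre and crosslinking genes, 6 averaged lower than Control in each GF group. Fbln2, a fibulin of elastic fibres and vessel walls, had a log2 difference of -0.54 in GF-AOM and -0.57 in GF-AOMS (SE 0.25, edgeR adjusted p 0.314 and 0.286). Its sign turned without Control replicates 3 to 6, at 0.16 and 0.14. Fbn1, the fibrillin of microfibrils, and Loxl1, a lysyl oxidase that acts on elastin, differed by -0.33 and -0.29 in GF-AOM and by -0.30 and -0.26 in GF-AOMS (SE 0.19 each). Lox, the founding lysyl oxidase, averaged 12.6 ± 4.67 CPM in GF-AOMS, 15.9 ± 8.37 CPM in GF-AOM and 12.0 ± 5.47 CPM in Control (SD, n = 6 each). These differences lay within the spread between replicates.

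Among the proteases, Mmp9 and Mmp15 stood furthest from 0. Mmp15 encodes a membrane-anchored metalloproteinase. It ranged over 25.8, 55.1 and 79.8 CPM in GF-AOMS (lowest, median, highest), 33.3, 59.8 and 86.8 CPM in GF-AOM, and 48.5, 97.2 and 147.2 CPM in Control. The log2 difference from Control was -0.72 in GF-AOM and -0.85 in GF-AOMS (SE 0.30, edgeR adjusted p 0.274 and 0.195), and without Control replicates 3 to 6 it was -0.38 and -0.51. Mmp9, a gelatinase made largely by neutrophils and macrophages, was low in all groups. It ranged over 3.81, 6.17 and 15.96 CPM in GF-AOMS (lowest, median, highest), 2.56, 4.12 and 7.35 CPM in GF-AOM, and 6.23, 7.58 and 12.3 CPM in Control. The difference of GF-AOM from Control was -0.94 (SE 0.33, edgeR adjusted p 0.215), with 6 of 6 GF-AOM libraries below the Control mean and the ranges of the groups overlapping. Without the 5 libraries of low TMM factor it was -1.26 (SE 0.25, edgeR adjusted p 0.0408), where 1.21% of all genes were called, and among the alternatives the p lay between 0.0408 and 0.999. The difference of GF-AOMS from Control was -0.23 (SE 0.33), and -0.63 (SE 0.25) without those libraries. The macrophage marker list, with 8 of 8 genes measured, summed to 194 to 336 FPKM in GF-AOMS, 236 to 432 FPKM in GF-AOM and 118 to 323 FPKM in Control, and its part in the Mmp9 values was not tested. Mmp28, an epithelial metalloproteinase, differed from Control by -0.64 in GF-AOM and -0.68 in GF-AOMS (SE 0.38), and by 0.14 and 0.11 without Control replicates 3 to 6. Mmp23 was the protease furthest above Control, at 0.34 in GF-AOM and 0.27 in GF-AOMS (SE 0.26, edgeR adjusted p 0.467 and 0.599). Its sign turned with the gene length slope as a covariate, to -0.050 in GF-AOM and -0.14 in GF-AOMS. Without the libraries of low TMM factor it turned in GF-AOMS, to -0.16.

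Inhibitors of these proteases had small differences. Timp1 differed from Control by 0.26 in GF-AOM and 0.42 in GF-AOMS (SE 0.29), with the sign turned to -0.36 and -0.19 without Control replicates 3 to 6. Timp2 and Timp3 differed by 0.02 and 0.16 in GF-AOM and by -0.28 and -0.16 in GF-AOMS (SE 0.20 and 0.26). Mmp14, which activates Mmp2 at the cell surface, differed by 0.22 in each GF group (SE 0.21). Mmp2 itself, a gelatinase of fibroblasts, differed by -0.09 in GF-AOM and -0.40 in GF-AOMS (SE 0.24).

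Smoke is the one variable that GF-AOMS and GF-AOM do not share, and no matrix gene was called between them. Mmp9 had the smallest unadjusted p, with a log2 difference of 0.71 (SE 0.33, unadjusted p 0.0461, edgeR adjusted p 1), and 5 of 6 GF-AOMS libraries lay above the GF-AOM mean. GF-AOMS replicate 2, at 15.96 CPM, was the highest of all libraries, and leaving out single libraries moved the difference between 0.32 and 0.91. With smoke Postn averaged 115 CPM (SD 44.2, n = 6), against 147 CPM (SD 45.1, n = 6) without it in GF-AOM, a log2 difference of -0.35 (SE 0.28, edgeR adjusted p 1). Col12a1, Timp3, Lox, Mmp2 and Timp2 followed, at -0.33, -0.33, -0.33, -0.31 and -0.30 (SE 0.20 to 0.35). All 5 fibrillar collagens averaged lower with smoke, by -0.09 to -0.16, against SE of 0.195 to 0.32. Col1a1 was at -0.16 (SE 0.26), and at 0.0088 without GF-AOM replicate 2. The laminin group had a median of 0.045, with 5 of 8 above 0.

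Some pairs of collagen chains kept steadier proportions over the libraries than others. The ratio of Col1a1 to Col1a2, taken from FPKM within each library, lay between 0.826 and 1.24 in all 18 libraries. It averaged 0.937 (SD 0.070) in GF-AOMS, 0.927 (SD 0.059) in GF-AOM and 1.09 (SD 0.10) in Control, a difference that was not tested. That of Col6a1 to Col6a2 lay between 1.64 and 2.45. Col4a1 to Col4a2, a pair that lies head to head and overlaps by 22 bases on chromosome 8, ranged from 1.05 to 1.46. In GF-AOMS it was 1.33 and 1.46 in replicates 1 and 2 and 1.05 to 1.13 in the others. In GF-AOM it was 1.28 and 1.29 in replicates 3 and 6 and 1.05 to 1.20 in the others. The ratio of Col3a1 to Col1a1 split the libraries more widely. It was 7.55 and 7.74 in GF-AOMS replicates 1 and 2 and 2.78 to 3.14 in the other GF-AOMS libraries. In GF-AOM it was 7.91 and 6.70 in replicates 3 and 6 and 2.91 to 3.91 in the others, and in Control it was 5.28 in replicate 2 and 2.74 to 4.41 in the others. The libraries with the high ratio are the 5 with a TMM factor under 0.9. Col6a3 to Col6a1 divided them in the same way, at 0.236 to 0.291 in the 4 GF libraries of low TMM factor, 0.221 in Control replicate 2, and 0.111 to 0.175 in the others. The split was not particular to these pairs. Dcn to Lum was 1.00 to 1.53 in the 5 libraries of low TMM factor and 2.04 to 5.53 in the others. Sparc to Col1a1 and Lamb1 to Lamc1 were higher in such libraries within both GF groups.

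**Figure D4:**
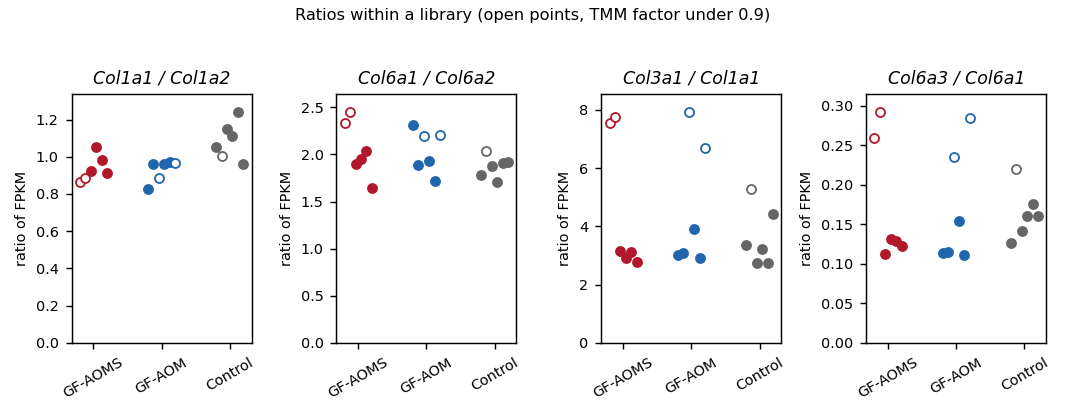
Ratio of FPKM between pairs of collagen genes within each library, by group, with open points where the TMM factor was under 0.9. Col1a1 over Col1a2 stays between 0.826 and 1.24, whereas Col3a1 over Col1a1 is 5.28 to 7.91 at the open points and 2.74 to 4.41 at the others.

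In both GF groups, the libraries of low TMM factor lay above all others of their group for 6 of the 47 genes, namely Col3a1, Lum, Sparc, Loxl3, Mmp9 and Mmp23. They lay below all others for 11, namely Col4a1, Col4a2, Col6a2, Col15a1, Col18a1, Lamc1, Nid1, Bgn, Eln, Mmp14 and Mmp28. The shares over all genes were 17.75% above and 19.0% below, and the matrix genes stood at 12.8% and 23.4%. Summed smooth muscle markers, with 9 of 9 genes measured and none at 0, were 2245 and 3164 FPKM in GF-AOMS replicates 1 and 2 and 830.3 to 1455 FPKM in the others of that group. In GF-AOM they were 1445 and 1320 FPKM in replicates 3 and 6 and 1252 to 2173 FPKM in the others. Summed epithelial markers, also 9 of 9, were 2928 and 2155 FPKM in GF-AOMS replicates 1 and 2 and 3937 to 4810 FPKM in the others of that group, and in GF-AOM they were 2849.9 and 2939.8 FPKM in replicates 3 and 6 and 2603 to 4078 FPKM in the others. These marker sums are of FPKM, which is not scaled by TMM. The part of cell content or of RNA quality in the ratios was not tested.

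Upstream sequences are shown for Col3a1 and Col6a3, whose ratios to Col1a1 and Col6a1 split the libraries, and for Col6a2, another type VI chain. In GF-AOMS the ratio of Col6a1 to Col6a2 was 2.33 and 2.45 in replicates 1 and 2 and 1.64 to 2.04 in the others. In GF-AOM replicates 3 and 6 it was 2.20 and 2.21, within the 1.72 to 2.32 of the others. Promoter entries of RefSeq (build GRCm38.p6) matched 31 of the 47 genes, and the windows shown are the 250 bases before the table's own start position, 5′ to 3′ on the coding strand, with a TATAAA match in capitals. Col3a1 lies at chr1:45311288-45311537 on the forward strand, Col6a3 at chr1:90843972-90844221 and Col6a2 at chr10:76623631-76623880, both on the reverse strand.
Col3a1: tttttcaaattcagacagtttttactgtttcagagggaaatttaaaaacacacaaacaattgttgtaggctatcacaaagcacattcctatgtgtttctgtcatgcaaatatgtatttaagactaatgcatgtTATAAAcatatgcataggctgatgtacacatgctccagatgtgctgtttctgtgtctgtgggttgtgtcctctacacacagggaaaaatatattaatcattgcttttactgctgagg
Col6a3: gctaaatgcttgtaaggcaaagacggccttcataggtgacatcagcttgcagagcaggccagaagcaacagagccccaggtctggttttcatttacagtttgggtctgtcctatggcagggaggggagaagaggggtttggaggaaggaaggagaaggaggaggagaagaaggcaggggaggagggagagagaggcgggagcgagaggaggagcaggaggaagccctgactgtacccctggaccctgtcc
Col6a2: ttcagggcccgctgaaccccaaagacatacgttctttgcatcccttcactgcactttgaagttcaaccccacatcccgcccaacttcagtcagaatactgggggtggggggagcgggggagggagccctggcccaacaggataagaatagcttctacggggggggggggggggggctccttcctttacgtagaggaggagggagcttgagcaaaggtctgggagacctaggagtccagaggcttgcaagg
The window of Col3a1 held 35.2% G and C, that of Col6a3 57.2% and that of Col6a2 59.2%. The letters TATAAA, or TTTATA on the other strand, stood in the Col3a1 window and in neither of the others. Over the same 250 bases of all 32851 RefSeq promoter entries they stood in 12.4%, against 2 of 31 matrix genes. The letters CCAAT, or ATTGG on the other strand, stood in none of the 3 windows, in 10 of 31 matrix genes and in 33.8% of all entries. Col3a1 is followed on chromosome 1 by Col5a2, 24614 bases away on the opposite strand, and Col6a2 and Col6a1 lie 85161 bases apart on chromosome 10.

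Spread within groups was wider in Control for these genes. The median SD of log2 CPM over 47 genes was 0.33 in GF-AOMS, 0.40 in GF-AOM and 0.57 in Control, where over all genes it was 0.32, 0.28 and 0.29 in the same order of groups. Control had the largest SD of the 3 groups for 32 of 47 matrix genes and 11 of 13 collagens, against 29.5% of all genes. Control replicate 4 was the lowest of its group for 37 of 47 genes, against 16.2% of all genes, and Control replicate 3 the highest for 32 of 47, against 14.7%. Both are among the libraries low in Hoxa13, and the part of colon position in this spread was not tested. In Control replicate 3 Col1a1 stood at 164.0 CPM and in replicate 4 at 53.3 CPM, and the replicates 1 and 2 held 134.7 CPM and 64.0 CPM. The fibroblast marker list, with 7 of 8 genes measured and Col1a1, Col1a2 and Postn among them, summed to 163 to 199.98 FPKM in GF-AOMS, 161 to 251 FPKM in GF-AOM and 153 to 303 FPKM in Control. Its lowest and highest values were those of Control replicates 4 and 3, and its part in the matrix values was not tested. Among its other measured members, log2 differences from Control were -0.21 in GF-AOM and -0.43 in GF-AOMS for Pdgfra. They were -0.093 and -0.072 for Thy1, 0.020 and -0.23 for Dpt, and -0.0023 and 0.036 for Vim (SE 0.20 to 0.25).

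Correlations with Col1a1 were taken over the 12 GF libraries, as log2 CPM centred on each group's mean, for 8 genes. Col1a2 followed Col1a1 with a Pearson r of 0.948 (permutation p 4e-05, adjusted over the 8 pairs 0.00032) and a Spearman rho of 0.958 (permutation p 6e-05, adjusted 0.00048). Without GF-AOM replicate 2 and GF-AOMS replicate 4, the farthest from the median, r was 0.888. The epithelial gene Epcam had r of 0.632 (permutation p 0.0248, adjusted 0.0992), rho of 0.685 (permutation p 0.0211, adjusted 0.0843) and r of 0.79 without the same 2 libraries, so it did not pass the adjustment. Leaving out GF-AOMS replicate 4 alone took its r to 0.726, with an adjusted permutation p of 0.00896. For Postn, Dcn, Col4a1, Lamc1 and the smooth muscle gene Myh11, r was between -0.281 and 0.293, with adjusted permutation p from 0.683 to 0.753 for r and from 0.545 to 0.841 for rho. On log2(FPKM + 1) Col4a1, Lamc1 and Epcam passed the adjustment, with r of 0.71 (adjusted permutation p 0.0319), 0.69 (adjusted 0.0422) and 0.86 (adjusted 0.0016). On this scale r rose for Dcn and Myh11 as well, to 0.56 and 0.0071. FPKM is not scaled by TMM, whose factors ran from 0.721 to 1.15 in these libraries. The part of that scaling in these r values was not tested.

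Col3a1 had r of 0.181 over all 12 (permutation p 0.597, adjusted 0.683) and rho of 0.196 (permutation p 0.566, adjusted 0.647). Its points fell into separate sets, with the 4 libraries of low TMM factor above the rest, so this pooled r does not measure the relation. Over the other 8 libraries, a choice made after the points were seen, r was 0.934 (exact permutation p 0.00347, adjusted 0.0278) and rho 0.81 (exact permutation p 0.0139, adjusted 0.0903). Leaving out the same 2 libraries gave r of 0.887 over 6. For Col1a2 in these 8 libraries r was 0.962 (exact permutation p 0.0156, adjusted 0.0625), and 0.72 over 6.

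**Figure D5:**
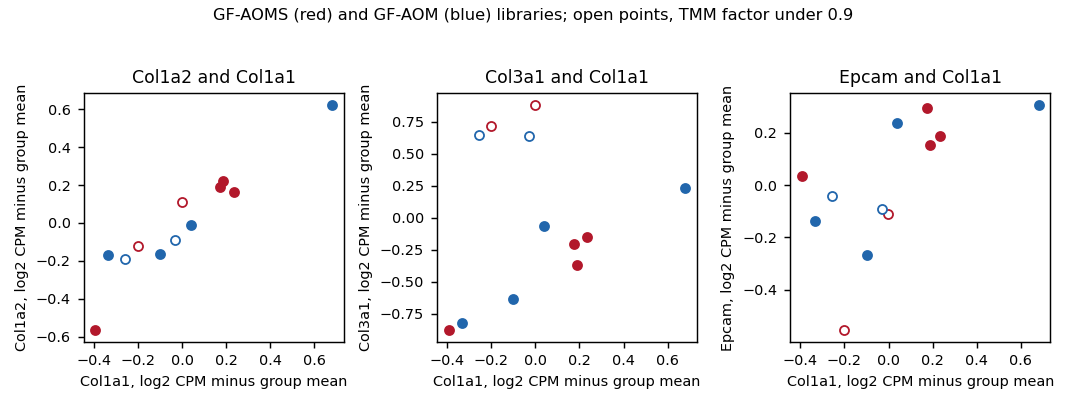
Log2 CPM of Col1a2, Col3a1 and Epcam against that of Col1a1 in the 12 GF libraries, each minus its group mean, with open points where the TMM factor was under 0.9. Col1a2 follows a line (r 0.948), while the 4 open points of Col3a1 lie apart, above the 8 closed ones.

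Genes that make, sense or bind the matrix were counted from lists chosen by function. Of 25 collagen processing genes 20 were measured and 0 were called in any comparison, with 1, 0 and 3 at an unadjusted p under 0.05 in GF-AOM against Control, GF-AOMS against GF-AOM and GF-AOMS against Control. In these comparisons 15.7%, 1.09% and 16.2% of all genes reached that level. Their median difference from Control was -0.018 in GF-AOM and -0.0084 in GF-AOMS. Ctsk encodes cathepsin K, a protease that cuts collagen. It had a difference of 0.97 (SE 0.32, edgeR adjusted p 0.186) in GF-AOM against Control. The lysyl hydroxylase genes Plod1 and Plod2, whose products prepare collagen for crosslinking, differed in GF-AOMS against Control by -0.35 (SE 0.14) and 0.54 (SE 0.21), with edgeR adjusted p of 0.254 and 0.23.

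Of 23 TGF-beta signalling genes, a pathway that drives collagen transcription, 19 were measured and 0 were called. Those with an unadjusted p under 0.05 numbered 4, 0 and 4 in the same order of comparisons, or 21.1%, 0.0% and 21.1% of the list, beside the same 15.7%, 1.09% and 16.2% of all genes. Smad7, the inhibitory Smad that TGF-beta itself induces, differed from Control by -0.53 in GF-AOM and -0.66 in GF-AOMS (SE 0.18 each, edgeR adjusted p 0.204 and 0.0973). Smad4, the shared partner of the signalling Smads, was at 0.47 (SE 0.14, edgeR adjusted p 0.126) in GF-AOMS against Control.

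Of 26 matrix receptor genes 19 were measured and 0 were called, and 15 averaged lower in GF-AOM and 18 in GF-AOMS than in Control, where 50.5% and 48.96% of all genes did. Those with an unadjusted p under 0.05 numbered 4, 1 and 5, or 21.1%, 5.26% and 26.3% of the list, beside 15.7%, 1.09% and 16.2% of all genes. Itga2, the alpha chain of a collagen-binding integrin, was at -1.04 (SE 0.29, edgeR adjusted p 0.101) in GF-AOMS against Control. Ddr1, a receptor tyrosine kinase for collagen, was at -0.73 (SE 0.20, edgeR adjusted p 0.123) in GF-AOM against Control. Cd44, a receptor for hyaluronan, was at -0.61 in GF-AOM and -0.68 in GF-AOMS (SE 0.21 each, edgeR adjusted p 0.204 and 0.135).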

How the data were processed

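Strand-specific libraries of total RNA with ribosomal RNA removed were made from RNA whose integrity number was 7 or above, per the labels' protocols, which place all libraries in 1 batch. The deposited table holds read counts per gene, whole numbers per the file headers, and, beside them, the authors' FPKM, for 10897 genes. FeatureCounts, DESeq2 and build GRCm39 are named in the submitters' processing notes without versions, and the aligner is not given in the sources used here. Gene positions in the table match GRCm38 (GENCODE M21, 45 of 47 members with both ends within 100 bases), so printed positions are GRCm38.

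A single edgeR 4.0.16 fit took in all 18 libraries (R 4.3.3, TMM, two-sided quasi-likelihood test, 15 residual degrees of freedom), with p-values adjusted over all genes by Benjamini-Hochberg. SE was taken as the log2 difference over the square root of F. Log2 CPM used a prior count of 2. DESeq2 1.42.0 and limma 3.58.1 served as alternatives, with other scalings, filters and left-out libraries. Replicate numbers did not pair the samples: correlations of same-numbered deviations ran from -0.619 to 0.517. Correlations were permuted within groups 100000 times, and exactly for 8 libraries. The fit was tested on simulated data. Libraries held 48953539 counts or more, so spread between libraries, not counting error, limits precision.

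Members, lists and tests were chosen with earlier results of these data known. Named genes are the 3 markers, the 3 members per direction with the smallest p where fewer than 5 were called, the highest by FPKM and the smallest p of each role, the widest spreads, and the smallest p of each pathway list. Others are named for their role or level.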

Additional observations from a re-analysis of the deposited data

Results flagged for a closer look

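Within groups of 6 libraries, 54 sets of CPM values (18 named matrix genes in 3 groups) were examined by Dixon's ratio. It finds a library standing far from its neighbours, and 5 sets held one. For independent sets of normal values chance gives about 1 in 20. These sets share libraries and hold genes that vary together, such as Col1a1 and Col1a2, so the count was not set against chance. GF-AOM replicate 2 stood above its group for both type I collagen chains, with 106.9 CPM of Col1a1 (the others held 52.9 to 68.6 CPM) and 210.4 CPM of Col1a2 (the others held 119.6 to 135.5 CPM). GF-AOM replicate 4 held 54.5 CPM of Lamb3, against 36.03 CPM in the next library. GF-AOMS replicate 2 held 15.96 CPM of Mmp9, against 6.72 CPM in the next, and GF-AOMS replicate 1 held 201.5 CPM of Postn, against 111.5 CPM. The causes were not tested.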

How the results depend on the processing

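Counts of matrix genes called stayed at 0 in 80 of 84 combinations of comparison and setting. The exceptions against Control were 1 in GF-AOM with DESeq2 (Lamb3), 1 in GF-AOM without the 5 libraries of TMM factor under 0.9 (Mmp9), and the range over left-out libraries, 0 to 1 in GF-AOM and 0 to 2 in GF-AOMS, the upper ends both without Control replicate 2. With the replicate number as a block 0 were called in each comparison, and since the numbers did not pair the samples this says little. The block turned the smoke difference of Col4a2 to -0.020. Of the named genes' differences, 937 kept sign and side of the threshold, 5 crossed it and 21 changed sign. Without Control replicates 3 to 6 the difference in GF-AOM turned for Dcn (0.0077), Fbln2 (0.16) and Timp1 (-0.36), and in GF-AOMS for Fbln2 (0.14) and Timp1 (-0.19). With each library's gene length slope as a covariate it turned in GF-AOM for Mmp23 (-0.050) and Timp1 (-0.00073), in GF-AOMS for Mmp23 (-0.14), and with smoke for Col4a2 (-0.020). Without the libraries of low TMM factor it turned for Mmp23 in GF-AOMS (-0.16) and, with smoke, for Lama5 (-0.0026) and Col4a2 (-0.0034). Over left-out libraries the smoke difference ran from -0.23 to 0.0088 for Col1a1 and from -0.085 to 0.16 for Col4a2. With log2(FPKM + 1), which is not scaled by TMM, r with Col1a1 was 0.56 for Dcn, 0.0071 for Myh11, 0.71 for Col4a1, 0.69 for Lamc1 and 0.86 for Epcam. The last 3 passed the threshold there (adjusted permutation p 0.0319, 0.0422 and 0.0016) though not on log2 CPM. In the 8 GF libraries of higher TMM factor, a set chosen after seeing the data, r was 0.962 for Col1a2 (adjusted p 0.0625 by exact permutation), 0.934 for Col3a1 and -0.034 for Lamc1. Over left-out libraries r ran from 0.553 to 0.726 for Epcam (past the threshold without GF-AOMS replicate 4), from -0.207 to 0.131 for Dcn, and from -0.030 to 0.311 for Col3a1, whose points form separate sets, so that its pooled r does not measure the relation. The causes were not tested.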
